A study of Mus musculus with 12 samples.

Results

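RNA sequencing of mouse male germ cells at 4 stages was examined for 6 genes that act on LINE-1 and other retroelements or on the nucleic acids they produce: L1td1, Mov10, Samhd1, Trex1, Adar and Apobec3. The genes were taken by symbol, as the rows of the deposited table whose Ensembl identifier maps to one of these 6 symbols. The rule itself uses symbols alone, but the members were proposed with earlier results of these data known. All 6 were found among the 55487 genes of the table. Tests were run on the 22384 genes that reached 10 normalized counts in 3 or more libraries, and 5 of these were members. Trex1 was the member below that limit.

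Per the labels, the cells were gonocytes, the precursors of spermatogonia in the fetal and newborn testis, taken from mice that carry the Mvh-Venus transgene, in which a fluorescent protein is made in the germ line. Each of the 4 stages had 3 libraries: E13.5 and E16.5 are days of embryonic development, P0 is the day on which the pups were born, and P3 lies 3 days later. Titles and source names call every sample wild type, but the genotype tag reads Morc1 (+/-) at E13.5 and P0 and Morc1 (-/-) at E16.5 and P3. Because of this conflict the grouping used the stage alone, and consecutive stages also cross the tag, so that stage and the tagged genotype cannot be told apart there. P0 against E13.5 and P3 against E16.5 stay within a tag. Morc1 itself was at 1621 to 1830 normalized counts in the E13.5 libraries, 28328 to 32917 at E16.5, 7280 to 7708 at P0 and 10584 to 11129 at P3, and was thus not low where the tag reads (-/-). The labels do not say whether the samples of a stage came from separate animals, so the p-values measure the spread between these samples, which may be technical.

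LINE-1 elements are retrotransposons that copy themselves through an RNA intermediate, which their own proteins bind and reverse-transcribe into new genomic copies. In the male germ line the fetal period is known for a genome-wide loss and later renewal of DNA methylation, when retroelements can be transcribed, and host genes act after transcription on their RNA, on the deoxynucleotide supply and on the DNA copies. The table counts host genes, and LINE-1 transcripts themselves were not analysed here.

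Between 40946616 and 51533747 reads lay behind each library, as computed from its deposited values, which are read counts divided by 1 size factor per library (normalized counts). The size factor of the file was 1.94 ± 0.118 at P0 and between 0.939 and 1.13 on average at the other stages (SD, n = 3 throughout), so that the normalized total at P0 (23866185 ± 923829) was below those of E13.5 (53663696 ± 777218), E16.5 (37800111 ± 1515109) and P3 (42732251 ± 756321). Scaling all libraries to equal totals instead raised the median log2 difference of all tested genes by 0.65 for P0 against E16.5 and lowered it by 0.82 for P3 against P0. With the file's scaling, 45.2% of called genes were higher in P0 than in E16.5, against 56.5% with TMM factors, 58.8% with median-of-ratios factors and 77.8% with equal totals. For P3 against P0 the shares were 52.4%, 44.0%, 39.3% and 26.5%, and for E16.5 against E13.5 they were 56.8% and, with equal totals, 69.1%. The same change took P0 against E13.5 from 53.0% to 76.0% and P3 against E13.5 from 55.7% to 68.4%. Directions are therefore given below with the scalings under which they turned. All 8 germ cell markers were detected at every stage. Their summed level was 255160 to 264983 normalized counts at E13.5 and 229945 to 253119 at E16.5. At P0 it was 130865 to 138812 and at P3 226226 to 247094. As a percentage of the normalized total it was 0.484, 0.649, 0.569 and 0.558 in stage order. Ddx4, Dnd1, Nanos2, Nanos3 and Tdrkh had their lowest means at P0, with Nanos2 at 10.2 and Nanos3 at 34.0. Dazl had its lowest mean at E16.5, and Mael and Sycp3 at E13.5. The 6 Sertoli cell markers summed to 3166 to 4366 in E13.5 libraries, 10676 to 15177 in those of E16.5, 13050 to 25966 in those of P0 and 5092 to 6603 in those of P3. Clu made up most of these sums, with means of 2723, 11041, 16528 and 4487 in stage order. From E13.5 to E16.5 the mean of Wt1 went from 85.7 to 48.5, whereas those of Sox9, Amh, Gata4 and Fshr were higher at E16.5. The part of these shifts in the levels of the members was not tested. In such bulk libraries fewer cells of a type and less RNA per cell cannot be told apart.

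All 5 tested members differed among the 4 stage groups in limma's F-test, as did 95.2% of all tested genes. Adjusted p (Benjamini-Hochberg) ran from 3.0e-12 for L1td1 to 3.4e-05 for Apobec3 in this test. These groups also differ in the genotype tag. Between E13.5 and E16.5, 3 members fell and none rose past the threshold (adjusted p under 0.05), where 80.1% of all tested genes were called in either direction, 45.5% higher and 34.6% lower. All 5 had libraries that did not overlap between these stages, as did 80.2% of genes. From E16.5 to P0, 2 members rose and 1 fell, against 61.0% of genes called, 27.6% higher and 33.4% lower, and 4 did not overlap, against 69.5% of genes. From P0 to P3 all 5 tested members were called, 4 higher and 1 lower, against 76.5% of genes, 40.1% higher and 36.4% lower, and none overlapped, as for 81.0% of genes. With 5 tested members, these counts and their directions are too few to set against the background, and nothing particular about the group is read from them. With the scaling of the file, L1td1 fell 107-fold between E13.5 and E16.5, Mov10 and Samhd1 were low at E16.5 and P0, Adar was low at P0, and Apobec3 was highest at P3. With equal totals Samhd1 was instead highest at P0 (7094 ± 216 against 4544 ± 102 at E13.5 and 6113 ± 108 at P3), and Apobec3 did not differ past the threshold between P0 and P3. The plot of values by library shows these 5 profiles and the zero row of Trex1.

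**Figure D1:**
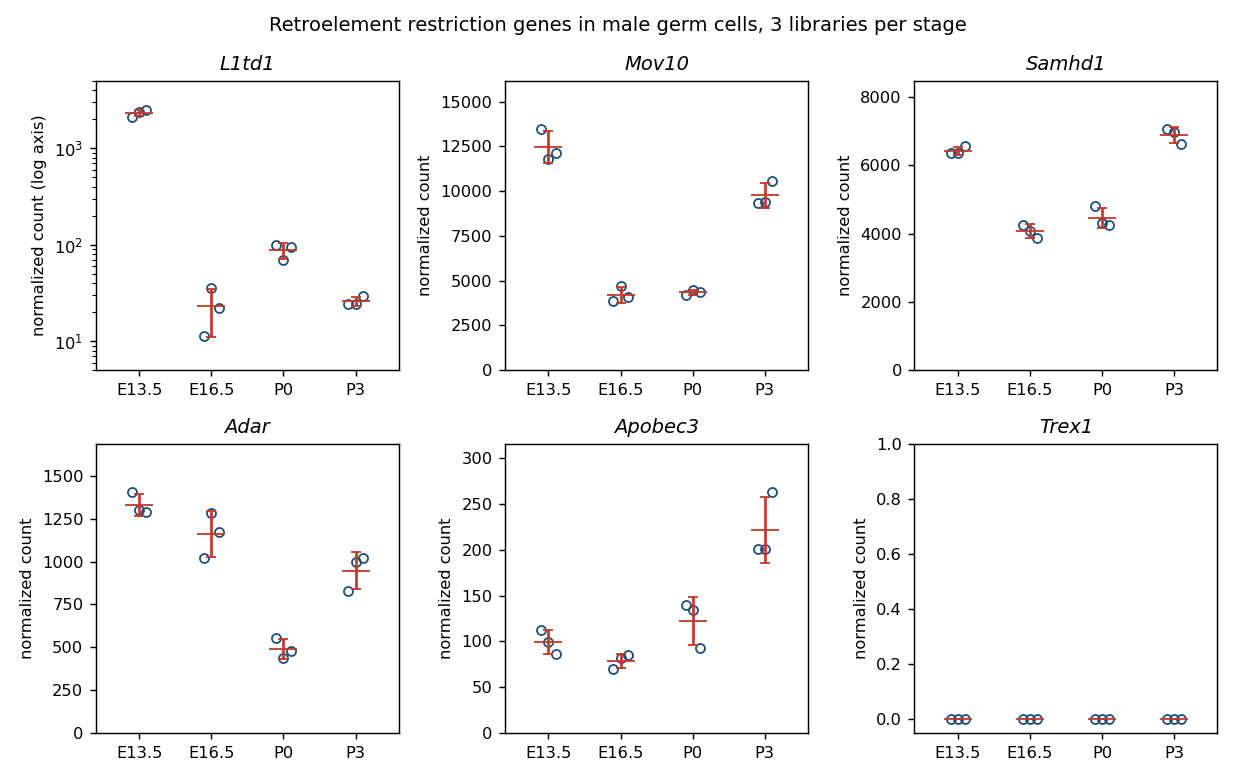
Normalized counts (reads divided by the size factor of the file) of the 6 genes in each of the 3 libraries per stage (circles), with the mean and SD (bars); the L1td1 axis is logarithmic, and those of Mov10, Samhd1, Adar and Apobec3 start at 0. L1td1 lies between 2127 and 2490 at E13.5 and under 100 at every later stage, Mov10 and Samhd1 dip at E16.5 and P0, Adar dips at P0, Apobec3 reaches 200.3 to 263.2 at P3, and Trex1 is listed at 0 in all 12 libraries; with equal totals, not plotted, Samhd1 was highest at P0.

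L1td1 (ENSMUSG00000087166; GRCm38 chr4:98726734-98738480, plus strand) encodes an RNA-binding protein whose coding sequence derives from the first open reading frame of a LINE-1 element, and it is known from pluripotent cells. Its normalized counts were 2127, 2396 and 2490 in the E13.5 libraries 1, 3 and 4, then 11.5, 35.3 and 22.2 at E16.5, 99.7, 69.6 and 95.1 at P0, then 24.2, 24.6 and 29.4 at P3. The E13.5 libraries lay far above all others, and the P0 libraries lay above both E16.5 and P3 with no overlap. At E16.5 the gene rested on 12 to 38 reads per library. L1td1 fell by 6.74 ± 0.301 (log2 fold change ± SE) from E13.5 to E16.5, which is 107-fold, with an adjusted p of 2.8e-12. It then rose by 2.01 ± 0.301, or 4.02-fold, to P0 (adjusted p = 2.3e-05) and fell by 1.71 ± 0.301 to P3 (adjusted p = 7.4e-05). P3 did not pass the test against E16.5 (0.30, 95% interval -0.34 to 0.94, adjusted p = 0.39), and this small difference turned to -0.11 without E16.5 library 1 and to 0.67 (adjusted p = 0.041) without E16.5 library 3. The order of levels was thus E13.5, P0, and then P3 and E16.5, whose difference did not pass the test. Within the shared genotype tag, P0 was 26.5-fold lower than E13.5 (log2 fold change -4.73, adjusted p = 1.8e-10; -3.56 with equal totals). All 5 called differences of L1td1 were called in the same direction under the scaling of the file, TMM, median-of-ratios factors and equal totals, with -6.23, 2.67 and -2.54 at the 3 steps under the last. The 5 endothelial markers summed to between 4429 and 5192 normalized counts at E13.5 and between 729.7 and 890.8 at E16.5. At P0 their sum was 1118 to 1314 and at P3 592.1 to 747.0. Pecam1 made up 4326 to 5074 of the E13.5 sum, whereas Cdh5, Kdr, Tek and Emcn had their lowest means at E13.5. The part of such cells in the L1td1 level was not tested.

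The 12 genes listed around L1td1 comprise its LIN28 partners and other pluripotency genes, all of them tested. From E13.5 to E16.5, 11 fell and 1 rose, with a median log2 fold change of -1.05 against 0.31 for all genes. From E16.5 to P0, 10 fell and none rose (median -1.54 against -0.01), and from P0 to P3, 8 rose and 3 fell (0.44 against 0.05). With equal totals these counts became 8 lower and 1 higher, 8 lower and 2 higher, and 3 higher and 6 lower. Dppa5a, a marker of early embryonic cells, had the lowest fold change at the first step, from 42996 ± 1014 to 2169 ± 382 normalized counts (-4.32, adjusted p = 1.6e-14). Nanog, a core pluripotency factor, went from 3615 ± 396 at E13.5 through 238.1 ± 55.3 and 62.9 ± 1.8 to 2.64 ± 0.61 normalized counts at P3, and it was called lower at every step. Lin28a, an RNA-binding protein that blocks let-7 maturation, moved opposite to L1td1 at the later steps: it fell by 2.43 from E16.5 to P0 (adjusted p = 6.9e-11), where L1td1 rose, and rose by 3.03 to P3 (adjusted p = 1.9e-12), where L1td1 fell. Dppa4, a chromatin-associated pluripotency factor, was the gene of this list that rose from E13.5 to E16.5 (1.22, adjusted p = 6.3e-11). The 3 genes closest to L1td1 over the 12 libraries, by root mean square difference of centred log2 values among 12186 genes, were Ckb (0.73), Etv1 (0.82) and Rassf5 (0.96). Ckb, a creatine kinase, was at 39563 ± 3055, 949.5 ± 73.2, 1494 ± 120 and 1043 ± 83.4 normalized counts in stage order.

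Mov10 (ENSMUSG00000002227; GRCm38 chr3:104794836-104818563, minus strand) encodes an RNA helicase that binds LINE-1 ribonucleoprotein particles and restricts retrotransposition. Its normalized counts were 13453, 11782 and 12103 at E13.5, 3838, 4682 and 4103 at E16.5, 4183, 4486 and 4349 at P0, then 9317, 9383 and 10570 at P3. Every E13.5 library was above every P3 library, and both stages were above E16.5 and P0, whose libraries overlapped. Mov10 fell 2.96-fold from E13.5 to E16.5 (log2 fold change -1.57 ± 0.0822, adjusted p = 2.1e-11; -1.06 with equal totals). It rose 2.25-fold from P0 to P3 (1.17 ± 0.0822, adjusted p = 1.3e-09), or by 0.33 with equal totals (adjusted p = 0.0024). P0 against E16.5 did not pass the test (0.05, 95% interval -0.13 to 0.22, adjusted p = 0.63; -0.015 without E16.5 library 1), but Mov10 was called higher at P0 with TMM factors (0.26), median-of-ratios factors (0.31) and equal totals (0.71). P3 was below E13.5 by 0.35 on the log2 scale (adjusted p = 0.0011), a difference that was -0.02 with equal totals (adjusted p = 0.83). Within a tag, P3 was 2.32-fold above E16.5 (1.22, adjusted p = 1.1e-09) and P0 was 2.86-fold below E13.5 (-1.52, adjusted p = 2.1e-11), both called in the same direction under all 4 scalings. The second was -0.35 with equal totals (adjusted p = 0.0012). The genes with the most similar profile were Jade1, Rbpj and Cdkal1, with root mean square differences of 0.078, 0.079 and 0.091. Rbpj, the DNA-binding factor of Notch signalling, was at 1885 ± 47.7, 663.4 ± 45.1, 698.0 ± 73.7 and 1496 ± 166 normalized counts from E13.5 to P3.

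A list of 21 other genes that act on LINE-1 after transcription or process nucleic acids (antiviral RNA-binding factors, RNase H2, microRNA-processing and RNA-decay factors) had 19 tested genes. Of these, 13 fell and 4 rose from E13.5 to E16.5 (median -0.74 against 0.31 for all genes), 12 fell and 3 rose to P0 (-0.41 against -0.01), and 16 rose and 3 fell to P3 (1.0 against 0.05). With equal totals the counts were 11 lower and 6 higher, 7 lower and 10 higher, and 9 higher and 6 lower. Mov10l1, the germ cell paralogue of Mov10 that unwinds piRNA precursors, did not follow Mov10. It rose from 9165 ± 391 at E13.5 to 30064 ± 3193 at E16.5 (1.71, adjusted p = 7.0e-12), fell to 6188 ± 49.1 at P0 (-2.27, adjusted p = 1.8e-12) and rose to 18774 ± 1837 at P3 (1.60, adjusted p = 2.6e-11). Zc3hav1, a zinc-finger antiviral protein that targets retroelement RNA, fell by 2.63 from E13.5 to E16.5 (adjusted p = 1.4e-11), rose by 1.04 to P0 (adjusted p = 4.2e-06) and rose by 0.85 to P3 (adjusted p = 2.1e-05). Rnaseh2a and Rnaseh2c encode subunits of RNase H2, which degrades RNA paired with DNA. Rnaseh2c fell at the first step, from 2261 ± 137 to 311.4 ± 72.3 normalized counts, whereas Rnaseh2a fell mainly at the second, from 6740 ± 372 to 1404 ± 145. Both rose from P0 to P3, Rnaseh2a by 2.49 (adjusted p = 2.2e-13) and Rnaseh2c by 2.13 (adjusted p = 9.5e-10). Upf1, the helicase of nonsense-mediated decay, fell by 1.70 from E13.5 to E16.5 (adjusted p = 1.5e-08), fell by 1.56 to P0 (adjusted p = 1.1e-07) and rose by 2.54 to P3 (adjusted p = 1.1e-10).

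Samhd1 (ENSMUSG00000027639; GRCm38 chr2:157097533-157135265, minus strand) encodes a triphosphohydrolase that breaks down deoxynucleotides and so limits reverse transcription. Its normalized counts were 6358, 6369 and 6564 at E13.5, 4267, 4090 and 3885 at E16.5, 4811, 4324 and 4270 at P0, then 7062, 6976 and 6636 at P3. The libraries of the 4 stages did not overlap, although the lowest P0 library (4270) lay next to the highest E16.5 library (4267). Samhd1 fell 1.58-fold from E13.5 to E16.5 (log2 fold change -0.66 ± 0.0673, adjusted p = 1.2e-07), a call that held under all 4 scalings (-0.15 with equal totals, adjusted p = 0.015). P0 against E16.5 gave 0.13 (95% interval -0.01 to 0.27, adjusted p = 0.11) and was called with TMM factors (0.34), median-of-ratios factors (0.39) and equal totals (0.79). Samhd1 then rose 1.54-fold to P3 (0.63 ± 0.0673, adjusted p = 2.7e-07), but equal totals turned this to -0.21 (adjusted p = 0.0015). P0 against E13.5 was -0.53 (adjusted p = 1.4e-06) and likewise turned, to 0.64 with equal totals (adjusted p = 7.3e-09). P3 against E16.5, within a tag, was 0.76 (adjusted p = 3.3e-08) and was called higher under all 4 scalings. P3 against E13.5 gave 0.10 (95% interval -0.04 to 0.24, adjusted p = 0.20), and 0.43 with equal totals (adjusted p = 1.9e-06). The order of levels was P3, E13.5, P0 and E16.5, and neither P3 and E13.5 nor P0 and E16.5 differed past the threshold with the scaling of the file. The closest profiles were those of Scfd2 (0.069), Klhdc10 (0.086) and Mxd4 (0.096).

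Samhd1 opposes the enzymes that make deoxynucleotides, and 12 of 13 listed genes of dNTP supply were tested. From E13.5 to E16.5, 11 fell and 1 rose, with a median of -1.30 against 0.31 for all genes. From E16.5 to P0, 10 fell and 2 rose (-0.85 against -0.01), and from P0 to P3 all 12 rose (2.18 against 0.05). With equal totals the counts were 10 lower and 1 higher, 6 lower and 4 higher, and 9 higher and 1 lower. Tk1, the thymidine kinase of dividing cells, had levels of 2924 ± 135, 281.8 ± 19.15, 432.5 ± 53.4 and 4828 ± 356 normalized counts in stage order. Its rise to P3 was the largest of the list, at 3.48 (adjusted p = 5.0e-14), where that of Samhd1 was 0.63. Tyms, which makes thymidylate, fell by 3.14 from E13.5 to E16.5 (adjusted p = 1.5e-14) and rose by 3.05 from P0 to P3 (adjusted p = 6.1e-14). Rrm1, the large subunit of ribonucleotide reductase, fell at both steps to 3562 ± 465 at P0 and rose by 2.83 to 25238 ± 567 at P3 (adjusted p = 1.0e-13). Dguok, a mitochondrial deoxyguanosine kinase, was the gene that rose from E13.5 to E16.5 (1.43, adjusted p = 7.2e-10). Rrm2, the small subunit of the same reductase, was listed at 0 in all 12 libraries, although it shares no exon base with another gene. These zeros are not read as absence of its transcript, and what gave rise to them was not tested.

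Trex1 (ENSMUSG00000049734; GRCm38 chr9:109057933-109059734, minus strand) encodes the main exonuclease of cytosolic DNA. It was listed at 0 in each of the 3 libraries at E13.5, E16.5, P0 and P3, so no test was possible. All 1147 of its exon bases in GENCODE M21 also lie in exons of Atrip, a gene of the DNA damage response on the same strand. Atrip was listed at 0 in all 12 libraries too, although most of its exon bases are shared with no other gene. The adjacent genes Shisa5, with no shared exon base, and Tma7, with 5.52% shared, were at 0 in all 12 as well, while the flanking genes Pfkfb4 (140.4 to 804.3 normalized counts) and Ccdc51 (237.9 to 826.6) were not. Over all protein-coding genes, 140 of 140 whose exon bases all lie in same-strand exons of other genes were at 0 in every library. The share at 0 was 3.5% (223 of 6364) where some but not all bases were shared and 10.6% (1639 of 15429) where none was. The zeros of Trex1 therefore cannot be read as absence of its transcript, and what gave rise to them was not tested.

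Apobec3 (ENSMUSG00000009585; GRCm38 chr15:79891659-79915906, plus strand) encodes the single cytidine deaminase of its subfamily in mice, which edits the first DNA strand of retroelements and retroviruses. Of its 9454 exon bases, 676 are shared with D730005E14Rik on the same strand and 100 with Cbx7 on the other. Its normalized counts were 111.9, 99.0 and 86.2 at E13.5, 69.7, 81.8 and 84.7 at E16.5, 139.9, 134.8 and 92.7 at P0, then 200.6, 200.3 and 263.2 at P3. All P3 libraries lay above all others, and P0 library 4 lay within the range of E13.5. E16.5 against E13.5 did not pass the test (-0.32, 95% interval -0.78 to 0.13, adjusted p = 0.17; 0.18 with equal totals). Apobec3 rose 1.53-fold from E16.5 to P0 (log2 fold change 0.61 ± 0.213, adjusted p = 0.020), a call made under all 4 scalings (1.27 with equal totals) but lost without E16.5 library 1 (adjusted p = 0.067), P0 library 1 (0.089) or P0 library 3 (0.080). It rose 1.82-fold from P0 to P3 (0.86 ± 0.213, adjusted p = 0.0016), and this call was lost with median-of-ratios factors (0.42, adjusted p = 0.076) and with equal totals (0.02, adjusted p = 0.92). P3 was 2.78-fold above E16.5 (1.47, adjusted p = 1.1e-05) and 2.22-fold above E13.5 (1.15, adjusted p = 1.4e-04), both under all 4 scalings. The order of levels was thus P3, P0, E13.5 and E16.5, in which E13.5 did not differ past the threshold from E16.5 or from P0 (0.29, adjusted p = 0.21, but called higher at P0 under the other 3 scalings). The most similar profiles were those of Nr4a1 (0.143), Mprip (0.144) and Mapkapk2 (0.147).

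Windows from 250 bases before to 50 bases after RefSeq gene starts were searched on both strands for the interferon response element, written as a GAAA block, any 2 bases and a second GAAA block, because APOBEC3 genes are known to respond to interferon. The match was present in 1 of the 11 windows of the 6 members, that of Apobec3, at bases -140 to -131 from the start on the minus strand. It was also found in 1131 of 32851 windows of all genes (3.44%) and in 7 of the 13 interferon-stimulated genes listed below that have a window. Bases -250 to -21 of that window, GRCm38.p6 chr15:79892158-79892387 on the plus strand, are shown with the matched bases in capitals, and a match is a description of the letters only.
Apobec3 upstream: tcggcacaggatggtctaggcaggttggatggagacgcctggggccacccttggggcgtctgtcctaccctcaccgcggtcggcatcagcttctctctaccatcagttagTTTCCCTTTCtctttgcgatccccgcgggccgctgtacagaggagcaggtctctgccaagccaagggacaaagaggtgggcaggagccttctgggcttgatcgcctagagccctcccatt
The GC box GGGCGG was found in windows of Samhd1, Trex1 and Adar, as in 35.7% of all windows, and the octamer ATTTGCAT in none of the 11, against 1.74% of all windows.

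Adar (ENSMUSG00000027951; GRCm38 chr3:89715022-89753446, plus strand) encodes the enzyme that converts adenosine to inosine in double-stranded RNA, which keeps self RNA from being sensed as foreign. Its gene count does not separate the interferon-inducible isoform from the constitutive one. Of its 8118 exon bases, 1365 (16.8%) are shared with Chrnb2 on the opposite strand. With no strand setting given, how reads there were counted is not known. Among 41 protein-coding genes with all exon bases shared but not all on the same strand, 39 were at 0 in every library. What gave rise to this was not tested. Adar was at 1406, 1299 and 1290 normalized counts at E13.5, 1018, 1284 and 1173 at E16.5, 553.5, 437.4 and 479.8 at P0, then 825.6, 995.8 and 1020 at P3. The P0 libraries lay below all others, and P3 overlapped with E16.5. Adar fell 2.36-fold from E16.5 to P0 (log2 fold change -1.24 ± 0.115, adjusted p = 8.9e-08), and by 1.45 from E13.5 to P0 within a tag (adjusted p = 3.5e-09), both under all 4 scalings. With equal totals these falls were smaller, at -0.58 (adjusted p = 4.4e-04) and -0.28 (adjusted p = 0.038). It rose 1.93-fold to P3 (0.95 ± 0.115, adjusted p = 1.2e-06), but with equal totals this was 0.11 (adjusted p = 0.40). E16.5 against E13.5 gave -0.21 (95% interval -0.45 to 0.04, adjusted p = 0.11), and equal totals turned it to 0.30 (adjusted p = 0.028). The small difference of P3 from E16.5 (-0.29, adjusted p = 0.034) passed under all 4 scalings but not without E16.5 library 3 (adjusted p = 0.14), E16.5 library 4 (0.079) or P3 library 1 (0.17). P3 was below E13.5 by 0.50 (adjusted p = 0.0010), and not past the threshold with equal totals (-0.17, adjusted p = 0.22). The order of levels was E13.5, E16.5, P3 and P0, and of its neighbours E13.5 and E16.5 did not differ past the threshold. Washc2 (0.114), Atp9b (0.12) and Ammecr1l (0.123) had the most similar profiles. Washc2, a subunit of the WASH complex of endosomes, was at 4871 ± 343, 4664 ± 446, 1816 ± 110 and 3454 ± 449 normalized counts from E13.5 to P3.

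**Figure D2:**
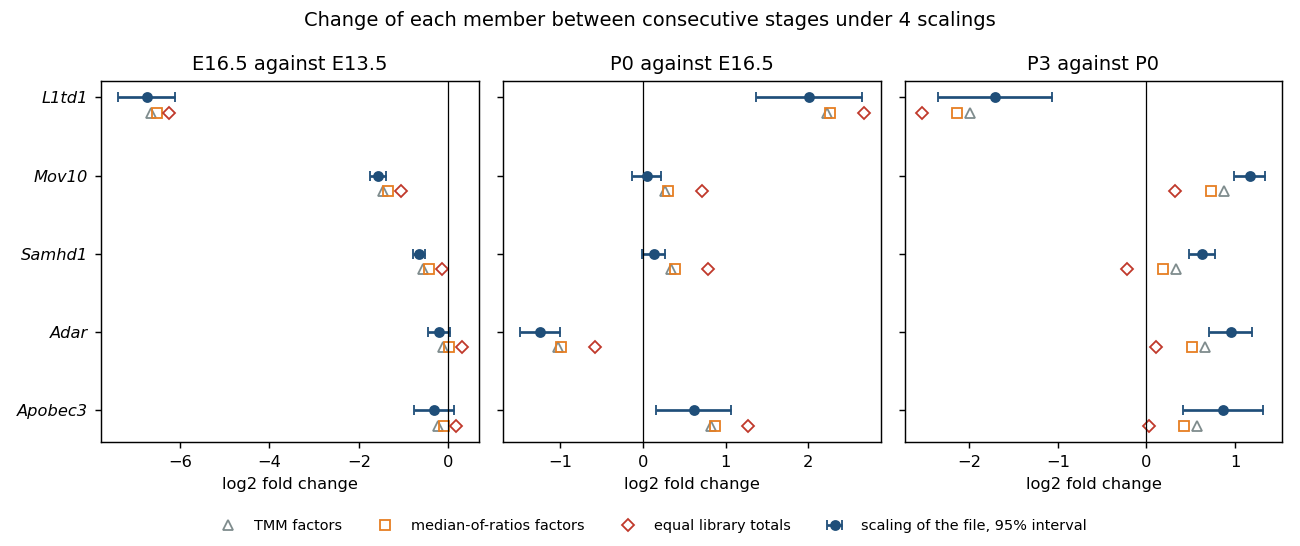
Log2 fold changes of the 5 tested genes between consecutive stages, with the scaling of the file and its 95% interval (filled circles, bars) and with 3 other scalings (open symbols). L1td1 keeps its direction throughout, and equal library totals move Samhd1 from 0.63 to -0.21 and Apobec3 from 0.86 to 0.02 for P3 against P0.

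The other AID/APOBEC and adenosine deaminase family genes numbered 11, of which 9 were tested. From E13.5 to E16.5, 3 rose and 3 fell (median 0.23 against 0.31 for all genes), from E16.5 to P0, 3 rose and 4 fell (0.04 against -0.01), and from P0 to P3, 5 rose and 4 fell (0.58 against 0.05). With equal totals these became 5 higher and 3 lower, 5 higher and 3 lower, and none higher and 6 lower. Adad1 and Adad2, adenosine deaminase-like genes of the male germ line, were the most abundant. Adad1 rose from 729.4 ± 54.5 to 7081 ± 687 normalized counts between E13.5 and E16.5 (3.28, adjusted p = 3.8e-15) and Adad2 from 2193 ± 134 to 8755 ± 472 (2.00, adjusted p = 4.6e-13), where Adar did not pass the test. Both then fell to P0 with Adar, by 1.33 (adjusted p = 5.8e-10) and 2.26 (adjusted p = 1.2e-12). Apobec1, which edits RNA and DNA cytidines, fell from P0 to P3, where Apobec3 rose with the scaling of the file. It was at 101.6 ± 19.3 at P0 and 11.5 ± 4.92 at P3, a fall of 3.12 (adjusted p = 4.6e-07). Adarb2, a deaminase family member with no known editing activity, was highest at P0, at 167.0 ± 14.7 against 34.1 ± 5.38 at E16.5 and 57.3 ± 4.74 at P3. Adat3 was listed at 0 in all 12 libraries, and all of its exon bases are shared with other genes.

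Trex1 and Adar are known to limit the sensing of self nucleic acids, so sensors and interferon-stimulated genes were read from the same fit. Of 15 sensing genes, 13 were tested: 4 rose and 4 fell from E13.5 to E16.5 (median -0.15 against 0.31 for all genes), 1 rose and 6 fell to P0 (-0.27 against -0.01), and 5 rose and 5 fell to P3 (-0.23 against 0.05). With equal totals these were 7 and 3, 6 and 3, and 3 and 8. Rigi, a sensor of double-stranded RNA ends, was at 7509 ± 227, 1911 ± 307, 1451 ± 108 and 90.7 ± 13.7 normalized counts in stage order. It fell by 3.99 from P0 to P3 (adjusted p = 6.8e-14). Ifih1, the sensor of long double-stranded RNA, was highest at P0, at 172.9 ± 31.8 against 15.9 ± 9.82 at E16.5 (3.59, adjusted p = 4.5e-06) and 39.2 ± 13.7 at P3 (-2.15, adjusted p = 5.0e-04). Cgas, the sensor of cytosolic DNA, rose from 107.0 ± 6.44 at P0 to 411.6 ± 17.7 at P3 (1.93, adjusted p = 8.1e-07). Irf3, the transcription factor that sensors activate, fell by 2.07 from E16.5 to P0 (adjusted p = 6.1e-10) and rose by 1.71 to P3 (adjusted p = 3.0e-09).

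Of 20 interferon-stimulated genes, 19 were tested. From E13.5 to E16.5, 13 rose and 2 fell (median 1.15 against 0.31 for all genes), and 14 rose and 1 fell with equal totals. From E16.5 to P0, 6 rose and 6 fell (-0.10 against -0.01), or 8 and 5 with equal totals. From P0 to P3, 3 rose and 13 fell (-1.31 against 0.05), with 1 rising and 17 falling under equal totals. Most of these genes were at low levels: Oasl2 and Stat2 were the most abundant of the list. Rsad2, an antiviral enzyme, went from 9.25 ± 1.42 at E13.5 to 108.4 ± 15.2 at E16.5 (3.42, adjusted p = 1.6e-10) and 470.9 ± 37.7 at P0 (2.11, adjusted p = 1.9e-07), then to 189.8 ± 27.7 at P3 (-1.31, adjusted p = 2.6e-05). Oas3, an antiviral oligoadenylate synthetase, had no read at E13.5 and was at 204.3 ± 22.7, 136.7 ± 18.5 and 62.2 ± 25.2 from E16.5 to P3. Ifi44 had none at E13.5 either and was at 136.5 ± 8.46 at E16.5. Isg15, a ubiquitin-like modifier, fell from 126.2 ± 37.5 at E16.5 to 10.3 ± 4.85 at P0 (-3.56, adjusted p = 1.2e-04). Apobec3 did not pass the test from E13.5 to E16.5, and its mean was highest at P3, where 13 listed genes were lower than at P0. Oasl2 rose from P0 to P3 (2.47, adjusted p = 2.6e-09).

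The summed markers of several other cell types also differed between stages. The 8 macrophage markers summed to between 40.3 and 105.6 normalized counts at E13.5, between 1143 and 1329 at E16.5, between 442.6 and 716.9 at P0 and between 323.9 and 350.8 at P3. Cd68 made up 862.9 to 1049 of the E16.5 sum, whereas Ptprc, the pan-leukocyte marker, was at 0 to 16.6 there and at 43.0 to 60.3 at P0. Adgre1 was at 0 in every P3 library, and all macrophage markers but Cd68 had lower means at P3 than at P0. Cd68 went the other way, from 31.4 to 49.1 normalized counts at P0 to between 245.5 and 279.1 at P3. Adgre1 and Ptprc were also at or under 3 reads in every E13.5 library. The 6 mast cell markers include Kit, which germ cells also express, and summed to between 6229 and 8113 normalized counts at E13.5, 2735 and 2985 at E16.5, 2387 and 3932 at P0, and 2592 and 3634 at P3. Besides Kit, the other 5 had no read in any E13.5 library, and Cpa3, a mast cell protease, had 187.8 to 627.1 normalized counts at P0. The 4 peritubular markers summed to between 159.4 and 208.9 normalized counts at E13.5, 928.9 and 1331 at E16.5, then 2835 to 3156 at P0 and 684.3 to 741.3 at P3. The 5 red blood cell markers summed to between 66.3 and 413.5 at E13.5, 1749 and 2416 at E16.5, then 1562 to 2483 at P0 and 286.8 to 521.3 at P3. For the 5 Leydig cell markers the sums were 571.3 to 723.1 at E13.5, 607.9 to 7681 at E16.5, 1078 to 6106 at P0 and 179.2 to 267.5 at P3. These 3 sums, and that of the Sertoli cell markers, were lower at P3 than at P0. The part of any of these cells in the levels of Apobec3, the sensors and the interferon-stimulated genes was not tested.

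**Figure D3:**
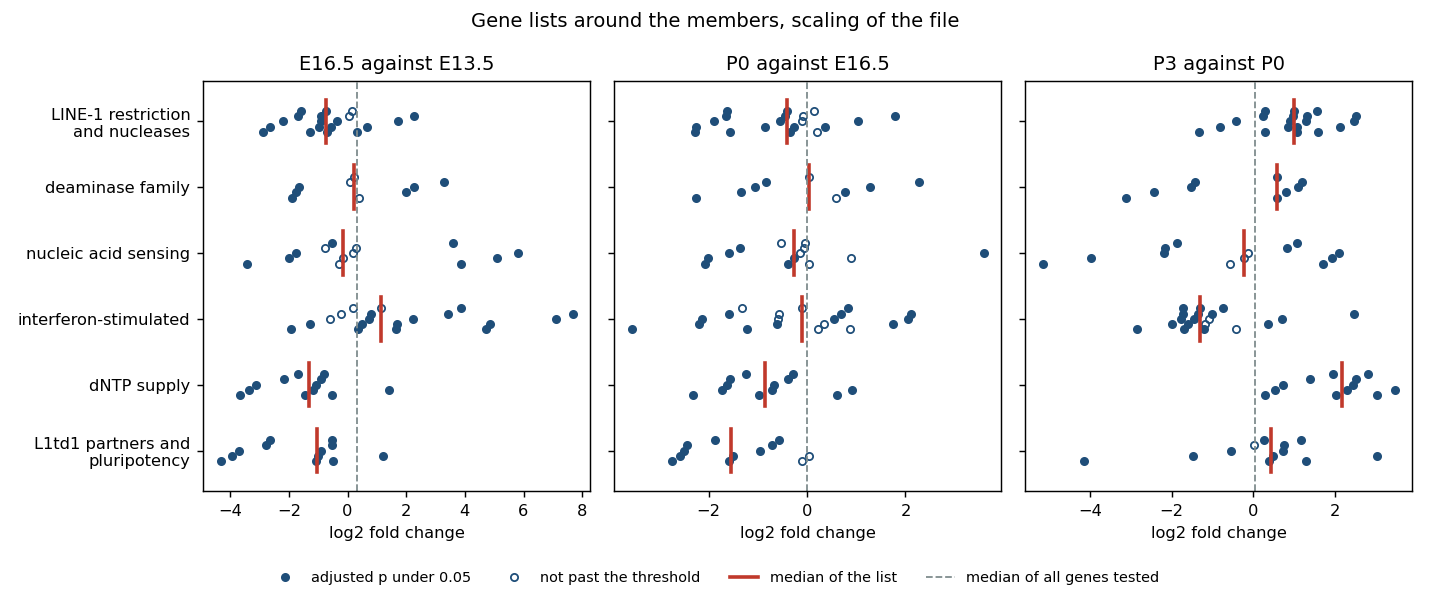
Log2 fold changes between consecutive stages of every tested gene of the 6 lists (filled where adjusted p was under 0.05), with the median of each list (red bar) and of all tested genes (dashed line). The dNTP supply genes lie around -1.30, -0.85 and 2.18 at the 3 steps, and the interferon-stimulated genes around 1.15, -0.10 and -1.31.

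Levels per kilobase of exon allow the members to be ranked at each stage. At E13.5 Mov10 stood highest, at a normalized count per kilobase of 2220, followed by L1td1 at 737 and Samhd1 at 703, which differed by less than the SD of L1td1 (59.4), then Adar at 164 and Apobec3 at 10.5. At E16.5 L1td1 had dropped to 7.24, beside Apobec3 at 8.33, with Mov10 at 750, Samhd1 at 446 and Adar at 143. At P0 the order was Mov10 (774), Samhd1 (488), Adar (60.4), L1td1 (27.8) and Apobec3 (13.0), and at P3 it was Mov10 (1740), Samhd1 (753), Adar (117), Apobec3 (23.4) and L1td1 (8.21). Mov10 was thus the most abundant member per kilobase at all 4 stages, and Apobec3 or L1td1 the least abundant of the 5 with reads. The divisor was all annotated exon bases of a gene, which may exceed the transcript present, so these ranks depend on it. It was 5607 for Mov10, 9150 for Samhd1 and 3174 for L1td1. Before division, the means of Mov10 and Samhd1 were 4208 and 4081 at E16.5 and 4339 and 4468 at P0. Those of L1td1 and Samhd1 were 2338 and 6430 at E13.5.

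Ratios of reads within a library do not depend on any scaling of libraries; they were added after the effect of scaling was seen and are given as descriptions. Mov10 had 1.84 to 2.12 reads per Samhd1 read at E13.5, 0.90 to 1.14 at E16.5, 0.87 to 1.04 at P0 and 1.32 to 1.59 at P3. The E13.5 ratios lay above the P3 ratios and these above those of E16.5 and P0, which overlapped. Adar had 0.20 to 0.22 reads per Samhd1 read at E13.5 and 0.24 to 0.31 at E16.5, but 0.10 to 0.12 at P0 and 0.12 to 0.15 at P3, so that both postnatal stages lay below both fetal ones. Apobec3 had 1.31 to 1.76 reads per 100 Samhd1 reads at E13.5, 1.63 to 2.18 at E16.5, 2.17 to 3.12 at P0 and 2.84 to 3.97 at P3. Its ratio to Adar was 0.06 to 0.08 in the fetal libraries and 0.19 to 0.31 in the postnatal ones, with no overlap. The ratio of reads between the 2 deaminases thus differed between fetal and postnatal libraries, and by its construction no scaling of libraries can change it.

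**Figure D4:**
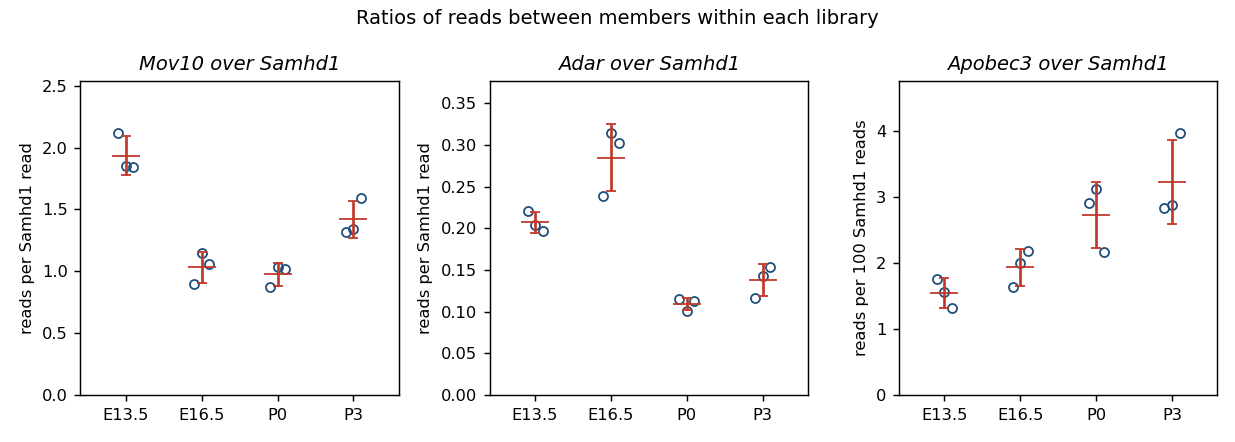
Reads of Mov10 and of Adar per Samhd1 read, and of Apobec3 per 100 Samhd1 reads, in each library (circles) with mean and SD (bars), from E13.5 to P3. Mov10 over Samhd1 is 1.84 to 2.12 at E13.5 and near 1 at E16.5 and P0; Adar over Samhd1 is lower in the postnatal than in the fetal libraries.

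Over the 12 libraries the profiles of Mov10 and Samhd1 were the closest pair of members, with a root mean square difference of 0.41 in centred log2 values. Apobec3 and Samhd1 followed at 0.45 and Samhd1 and Adar at 0.55, while pairs with L1td1 lay between 2.35 and 2.91. Of the 30 member comparisons over the 6 pairs of stages, which share libraries with one another, 23 were called, 17 of them in the same direction under all 4 scalings. The direction turned under a scaling in 4 of the 30. Over all tested genes, 73.9% of such comparisons were called, 60.4% were called in the same direction under all 4 scalings, and 15.1% turned, so these shares of members are near the background. For the 3 other pairs, 4 of the 5 tested members were called each time: all 4 lower in P0 than in E13.5 (86.1% of all genes called, 45.7% higher and 40.5% lower), 3 higher and 1 lower in P3 than in E16.5 (69.5% called, 34.2% higher and 35.2% lower), and 1 higher and 3 lower in P3 than in E13.5 (70.4% called, 39.2% higher and 31.2% lower). The libraries of 4, 3 and 5 members did not overlap in these 3 comparisons, against 88.1%, 71.6% and 71.3% of all genes.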

How the data were processed

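RNA of mouse male germ cells, 12 samples with 3 per stage, was sequenced after library preparation with a SMART-seq v4 kit and a TruSeq kit, per the labels' protocols. The authors deposited 1 table of 55487 genes by 12 libraries whose signal is a read count divided by a size factor of the relative log expression method. The submitters' processing notes name bcl2fastq 2.20, cutadapt 1.18, HISAT2 2.1.0, featureCounts 1.5.2, DESeq2 1.26.0 and the build mm10 (GRCm38). The annotation release, the strand setting and the handling of reads that match several genes are not given in the sources used here. Within a tolerance of 0.001, 100% of values were whole multiples of 1 read, so reads could be recovered. Median-of-ratios factors are of the same method as those of the file, but recomputing them from the recovered reads gave different factors. Against the file's scaling they moved the median log2 difference of all tested genes by 0.25 for P0 against E16.5. For P3 against P0 they moved it by -0.43. Why the factors differ was not tested. The columns are named by stage and a number (1, 3 or 4) that differs from the replicate numbers of the titles, so a column was given a stage and no sample. Symbols matched 55141 of 55487 identifiers (99.4%). Positions are from GENCODE M21 on GRCm38, and promoter windows from RefSeq on GRCm38.p6.

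The test was limma 3.58.1 (R 4.3.3; lmFit, then eBayes with its trend option) on log2(normalized count + 1). It covered the 22384 genes that reached 10 normalized counts in 3 or more libraries. The 4 stages shared 1 spread with 8 residual degrees of freedom, and adjusted p is Benjamini-Hochberg over all genes tested, with a threshold of 0.05. Fold changes are on this log2 scale, which understates changes of low genes. Other settings were TMM or median-of-ratios factors, equal totals, a pseudocount of 0.1 or of 10, all genes or those whose mean reached 100, a fit of the 2 compared stages, edgeR 4.0.16 or DESeq2 1.42.0 on recovered reads, omission of 1 library at a time and, added later, a block of the column numbers. On recovered reads, edgeR's quasi-likelihood test called 17851, 14370 and 17358 genes for the 3 consecutive comparisons, against 17932, 13658 and 17122 for limma. The tests were tried on simulated data first. Ratios, figures and counts used Python 3.11.15 with pandas 2.3.3, numpy 2.4.6 and matplotlib 3.10.9.

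The members and gene lists were chosen with earlier results of these data known. Named genes are the 6 members, from each list the 2 most and the 2 least abundant tested genes and, in each consecutive comparison, the 2 highest and 2 lowest called fold changes, and for each member the 3 genes of smallest root mean square difference whose mean reached 100 and whose name was no predicted-gene or clone name. Genes listed at 0 everywhere were named after their values were seen. One listed gene that met the naming rule is not reported here.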

Additional observations from a re-analysis of the deposited data

How the results depend on the processing

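With the file's scaling 3 tested members were called for P0 against E16.5, and 5 with TMM, median-of-ratios factors and equal totals, where 13658 of all tested genes became 13982, 14072 and 15554. For P3 against P0, 5 were called with the file's scaling and TMM, 4 with median-of-ratios factors and 3 with equal totals, beside 17122, 17113, 17048 and 17351 of all genes. Directions turned with equal totals for Apobec3 (0.18) and Adar (0.30) at E16.5 against E13.5, for Samhd1 at P3 against P0 (-0.21) and at P0 against E13.5 (0.64), and with median-of-ratios factors for Adar at E16.5 against E13.5 (0.015). Leaving out E16.5 library 1 turned Mov10 at P0 against E16.5 to -0.015 (range -0.015 to 0.13 over all omissions) and L1td1 at P3 against E16.5 to -0.11 (range -0.11 to 0.67). With a mean of at least 100, where fewer genes are tested, 11459 of all genes were called for E16.5 against E13.5, 11249 for P3 against P0 and 11968 for P0 against E13.5, in place of 17932, 17122 and 19280. Of 330 member values under the alternatives other than leaving out a library, 307 kept their direction and side of the threshold, and of 360 with a library left out, 350 did.

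When each library was left out in turn, called members ranged from 3 to 4 for E16.5 against E13.5, 2 to 3 for P0 against E16.5, 5 to 5 for P3 against P0, 4 to 4 for P0 against E13.5, 3 to 4 for P3 against E16.5 and 4 to 4 for P3 against E13.5, and 5 differed among stages each time. All genes called ranged, in the same order, from 17149 to 17935, 11827 to 13830, 15646 to 17217, 18099 to 19229, 14613 to 15670 and 14926 to 15818. The call of Adar for P3 against E16.5 was also lost with no filter (adjusted p = 0.062). The column numbers 1, 3 and 4 do not match the replicate numbers of the titles, and the labels do not say what they mark. A replicate block of these numbers, added after seeing the data, moved no member call: 3, 3 and 5 members were called at the consecutive steps, with 17911, 13529 and 17028 of all genes. Same-numbered libraries of different stages had correlations of their deviations from the stage means between -0.036 and 0.042, none of 18 over 0.1, and were the best match in 9 of 36 cases, so the numbers were not taken as pairs. The cause of the differences between scalings was not tested. Depth limits L1td1 at E16.5, with 12 to 38 reads per library. Amplified reads carry no molecular identifiers.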
